A study of Mus musculus with 4 samples.

Results

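Chromatin accessibility was examined at 8 genes of the PI3K, AKT and mTOR pathway in mouse bone marrow-derived macrophages (BMDMs). The genes were Pik3cd, Pik3cg, Pik3r1, Pik3r5, Pik3ap1, Inpp5d, Akt1 and Rictor. The assay was ATAC-seq, in which the Tn5 transposase inserts sequencing adapters into open DNA, so that a peak marks an accessible stretch of chromatin. Peaks from the 4 libraries sharing 1 bp or more were joined into a region, and a region was taken for a gene when its highest peak was annotated to the transcription start site (TSS) of that gene, the nearest one. This gave 107 regions of 60710 in all. The assignment is by distance alone and does not show that a region acts on the gene.

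The cells were wild-type BMDMs from C57BL/6 mice aged 8 to 12 weeks, grown for 6 days with supernatant of L929 cells, a source of macrophage colony-stimulating factor. Bone marrow cultures of this kind can retain cells other than macrophages. The control libraries (n = 2) received no IL-4 and the IL-4 libraries (n = 2) were made after 1 h with 20 ng/ml of IL-4, the cytokine that activates STAT6 and drives alternative polarization. The methods describe the libraries of a group as biological replicates.

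PI3K is a lipid kinase that phosphorylates the membrane lipid PIP2 to PIP3. PIP3 recruits the kinase AKT, which is activated by PDK1 and by mTORC2, and AKT in turn raises the activity of mTORC1, a driver of protein synthesis and growth. In macrophages the pathway acts downstream of growth factor, chemokine, Toll-like and cytokine receptors, and the IL-4 receptor engages it through the adaptor IRS2 in parallel with STAT6. The 8 genes encode catalytic subunits (Pik3cd and Pik3cg), regulatory subunits (Pik3r1 and Pik3r5), an adaptor (Pik3ap1), an opposing phosphatase (Inpp5d), the kinase itself (Akt1) and a subunit of mTORC2 (Rictor).

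The 107 regions were searched on mm10 for TTCNNNNGAA, the palindrome with a 4-base spacer to which STAT6 binds. It occurred in 10 member regions (9.35%), compared with 7.22% of all regions. Of the 35 member regions with a peak in all 4 libraries 2 held it (5.71%), compared with 8.92% of all such regions. Both were in the intergenic DNA upstream of Pik3r1, and these 2 are shown whole. The first lay at chr13:102094216-102094514, −326.1 kb from the Pik3r1 TSS, and the second at chr13:101918267-101918550, −150.2 kb from it. Both are given on the plus strand. In the first, the capitals mark TGTGGTT, the core of RUNX factors, near the 5′ end, and then the STAT6-type palindrome. In the second they mark that palindrome and then TTCNNNGAA, the 3-base spacing preferred by other STAT proteins.
Pik3r1 −326.1 kb: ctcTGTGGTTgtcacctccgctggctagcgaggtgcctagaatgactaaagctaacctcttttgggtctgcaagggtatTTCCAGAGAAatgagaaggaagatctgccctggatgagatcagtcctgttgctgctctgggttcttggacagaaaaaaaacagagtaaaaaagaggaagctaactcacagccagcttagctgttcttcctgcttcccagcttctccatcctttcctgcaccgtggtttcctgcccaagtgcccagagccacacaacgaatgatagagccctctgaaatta
Pik3r1 −150.2 kb: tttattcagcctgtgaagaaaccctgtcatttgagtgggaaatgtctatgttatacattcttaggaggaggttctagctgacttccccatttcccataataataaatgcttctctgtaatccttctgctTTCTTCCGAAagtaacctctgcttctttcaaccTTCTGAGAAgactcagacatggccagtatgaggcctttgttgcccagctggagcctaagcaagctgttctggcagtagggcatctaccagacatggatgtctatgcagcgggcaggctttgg

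Among the other member regions, the palindrome (capitals) is shown with its flanks for the IL-4-only region and for the control-only region that held it. These terms mean a peak called in both libraries of that group and in neither of the other. The IL-4-only site is in intron 3 of Pik3cd at chr4:149662502-149662531 and the control-only site in intron 2 of Inpp5d at chr1:87639901-87639930. The remaining 6 regions with the palindrome were weak or were called in few libraries. At Pik3r1, the region at −375.8 kb had 6.62 in IL-4 1 only, that at 68.4 kb had 2.49 in IL-4 2 only, and that at −76.0 kb had 4.38 in control 1 and 2.95 and 2.49 after IL-4. The Pik3ap1 region at 43.2 kb had 4.50 and 2.62 in control and 6.43 in IL-4 2. The Inpp5d region at 1.0 kb had 8.55 in control 1 only, and the Pik3cg region at 7.6 kb had 3.50 in IL-4 1 only.
Pik3cd intron 3: acagagtcagTTCCTCGGAAtccacatttt
Inpp5d intron 2: agaggcggtgTTCGTGTGAAtcctgggtcc

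Peak height, the score of the peak list read as −log10 of its q-value, was the measure used. It states how strongly a peak stands out within a library, grows with sequencing depth and is no read count, and the depth is unknown. The control libraries held 45250 and 41885 peaks and the IL-4 libraries 41978 and 39462, with median heights from 6.41 in the second IL-4 library to 8.04 in the first control library. A promoter peak was present in all 4 libraries for 8 of 9 macrophage markers, among them Spi1, Cd68, Itgam and Lyz2. Csf1r had no promoter peak but had 3 other regions in all 4 libraries. Of 22 promoters of T cell, B cell, neutrophil, erythroid and fibroblast markers, Ebf1 alone had a peak in all 4, Cd2 and Pdgfra in 1 library each, and the remaining 19 had none. Outside promoters, Cd2 had 3 regions in all 4 libraries, and Cd3d, Lck, Ms4a1, Klf1 and Pdgfrb had 1 each.

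The number of regions differed widely between the 8 genes. Pik3r1 had 40, Pik3cg and Pik3ap1 15 each, Inpp5d 11, Pik3cd 10, Pik3r5 8, and Akt1 and Rictor 4 each, whereas the median over the 16244 genes with a region was 2. Only 8 genes, Pik3r1 included, had as many as 40. Introns held 45.8% of the member regions, intergenic DNA 42.1% and promoters 12.1%, and the share in promoters over all regions was 18.8%. The RefSeq models placed 53 of the 107 inside their own gene and 44 in no gene. The remaining 10 lay inside another gene only, for example the Pik3cd regions at 25.2 and 30.5 kb, which are inside Clstn1.

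The 8 genes had fewer peaks in the IL-4 libraries. The control libraries held 82 and 70 peaks at these genes and the IL-4 libraries 64 and 57. The groups did not overlap, with means of 76.0 ± 8.49 and 60.5 ± 4.95 (SD, n = 2 each), a difference of −15.5 peaks (−9.5 without control 1, −21.5 without control 2). The exact permutation test gave p = 0.33 (two-sided), which is the smallest value that 2 libraries against 2 allow. Expressed against all peaks of its library, the share at the 8 genes was 0.181% and 0.167% in control and 0.152% and 0.144% after IL-4 (exact permutation p = 0.33). The total number of peaks was lower by 2847.5 on average after IL-4, with overlapping groups (exact permutation p = 0.6667).

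A peak was present in all 4 libraries in 35 member regions (32.7%), compared with 41.9% of all regions. Another 18 had a peak in 3 libraries, 9 in 1 library of each group, and 32 in a single library. Both control libraries and no IL-4 library had a peak in 12 member regions (11.2%), for which the background was 4.33% of all regions. The reverse pattern was seen in 1 member region (0.935%), for which the background was 2.53%. These are absences of a called peak and not measurements of closed chromatin. The control-only count became 16, 24, 22 or 15 and the IL-4-only count 4, 3, 8 or 10 when control 1, control 2, IL-4 1 or IL-4 2 was left out, since 1 library then stood for its group. The share over all regions was not computed for these settings, and the backgrounds of 4.33% and 2.53% do not apply to them.

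**Figure D1:**
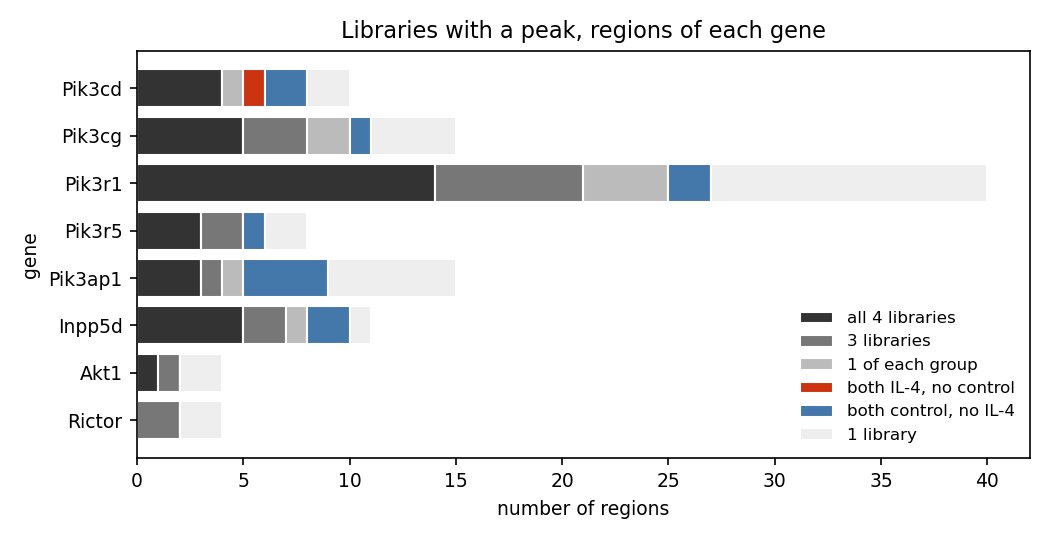
Number of regions of each gene (horizontal bars) by the libraries that had a peak there, for 107 regions. Control-only regions (blue) occurred at 6 genes and were most frequent at Pik3ap1 with 4, and the 1 IL-4-only region (red) was at Pik3cd.

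In the 35 regions shared by all 4 libraries, heights were quantile-normalised on the log2 scale and tested with limma among all 25442 shared regions. No member region passed an adjusted p of 0.05 in either direction, and the background was low as well, at 0.0157% higher and 0.00786% lower. At an unadjusted p under 0.05, 2 member regions were higher after IL-4 and 3 lower, against 4.12% and 4.15% of all shared regions. The normalised heights of the groups did not overlap in 7 regions that were higher after IL-4 and in 14 that were lower, against 19.2% and 18.6% of all shared regions. The estimate was lower after IL-4 in 22 of the 35 regions (62.9%), compared with 50.1% of all shared regions, and the median log2 height change was −0.36 (interquartile range −0.58 to 0.22), compared with −0.0006 over all. The standard errors of the 35 single estimates had a median of 0.473. The spread between libraries of the median over the 35 was 0.22 (SD). Heights given for single regions, and statements of overlap there, are before normalisation unless stated otherwise. The log2 changes are after it.

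**Figure D2:**
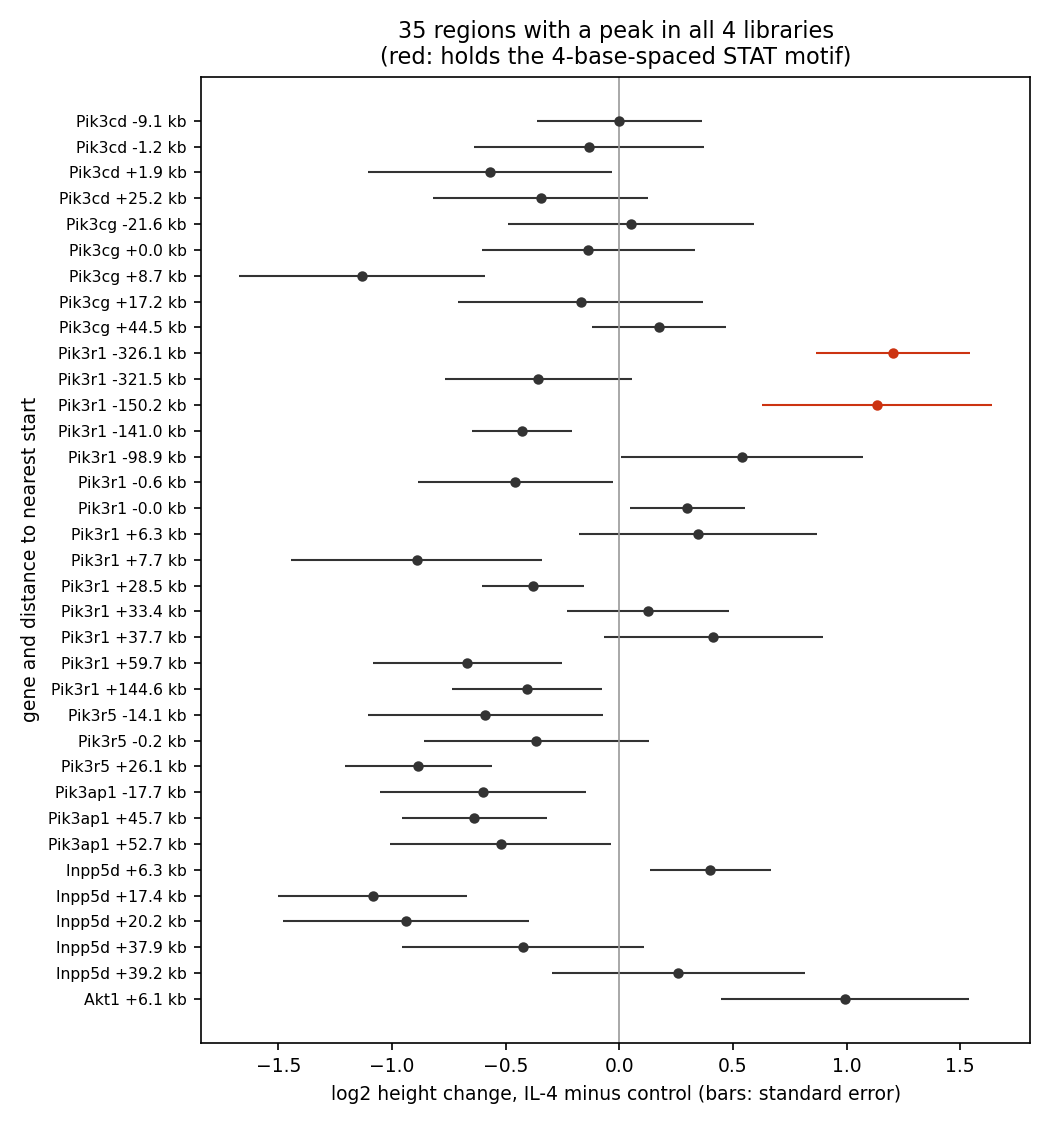
Log2 height change (IL-4 minus control, limma estimate) with its standard error for the 35 member regions found in all 4 libraries, labelled by gene and distance to the nearest TSS. The 2 regions with the TTCNNNNGAA palindrome (red), both upstream of Pik3r1, have the highest estimates, and those of Pik3r5 and Pik3ap1 are all below 0.

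Pik3cd encodes p110δ, the leukocyte-enriched catalytic subunit of PI3K, and lies at chr4:149649168-149702566 on the minus strand. Several start sites are annotated, and the regions at them differed. The region at 8 bp from one start had a height of 6.18 and 6.32 in the control libraries and no peak after IL-4. The region at 86 bp from another start had 4.61 in control 1 and 4.68 in IL-4 2. Another region, at −1.2 kb in the deposited annotation but at −175 bp from a start in the RefSeq models, was called in all 4 libraries, with 7.46 and 11.51 in control and 10.91 and 4.64 after IL-4. The groups overlapped there, so a peak at the 5′ end of the gene was present in both groups. A second control-only region, in intron 2 at −1.8 kb from the nearest of the annotated starts, had 4.38 and 4.95.

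The sole IL-4-only region of the 8 genes was in intron 3 of Pik3cd, where the palindrome shown above lies. This region was 880 bp from the nearest annotated Pik3cd start, in the deposited annotation and in the RefSeq models. A start-proximal region of Pik3cd thus also went the opposite way to the control-only region at 8 bp. It had no peak in control and heights of 7.97 and 4.06 after IL-4. TTCNNNNGAA was present in 30.9% of all 1534 IL-4-only regions and in 2.24% of all 2630 control-only regions. Among all regions of like length to this one (346 bp), 10.7% held it. Without peaks scoring under 5 the region was no longer IL-4-only, since its second height is 4.06.

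The highest Pik3cd region lay at −9.1 kb, with 14.76 and 16.46 in control and 11.78 and 15.42 after IL-4, and the groups overlapped. In intron 1 at 1.9 kb, heights were 7.90 and 7.31 in control and 4.58 and 3.93 after IL-4. They did not overlap, and the log2 change was −0.57 ± 0.54 (SE; limma adjusted p = 0.8417). Over its 4 shared regions the mean change was −0.26 ± 0.25 (SD over regions).

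Pik3cg encodes p110γ, the catalytic subunit activated by G protein-coupled receptors, and lies at chr12:32173397-32208677 on the minus strand. Its promoter had 14.12 and 7.64 in control and 9.82 and 6.47 after IL-4, which overlapped. The highest region was intergenic, at 44.5 kb past the start, with 20.02 and 18.43 in control and 20.71 and 17.35 after IL-4. These heights overlapped too, but after normalisation both IL-4 values were above both control values. The log2 change was 0.18 ± 0.30 (SE; limma adjusted p = 0.928).

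A control-only region at −19.1 kb had 5.73 and 5.75. The shared region that differed most at Pik3cg was in intron 4 at 8.7 kb, with 7.86 and 11.53 in control and 3.62 and 3.73 after IL-4. Both control values were above both IL-4 values, and the log2 change was −1.13 ± 0.54 (SE; limma unadjusted p = 0.0410, adjusted p = 0.5839). Its sequence at chr12:32199540-32199743 (plus strand) is shown because it holds the motifs of the macrophage lineage factors C/EBP (reverse strand of TTGCNNAA, first capitals) and PU.1 (GAGGAAGT, second capitals).
Pik3cg 8.7 kb: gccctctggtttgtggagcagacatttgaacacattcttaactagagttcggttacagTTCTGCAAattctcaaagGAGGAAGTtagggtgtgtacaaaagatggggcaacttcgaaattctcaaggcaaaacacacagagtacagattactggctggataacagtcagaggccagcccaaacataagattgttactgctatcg

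Pik3r1 encodes p85α and its shorter forms p55α and p50α, which bind phosphotyrosine motifs and hold the catalytic subunits at receptors. It lies at chr13:101680761-101768217 on the minus strand, and its 40 regions reached from −380.0 kb to 144.6 kb. Its promoter was the highest of the 8 genes, with 25.42 and 21.20 in control and 26.22 and 25.31 after IL-4. These heights overlapped, but after normalisation both IL-4 values were above both control values. The log2 change was 0.30 ± 0.25 (SE; limma adjusted p = 0.8098). The mean height of 24.5 exceeded that of 90.2% of genes with a promoter region. A neighbouring promoter region at −0.6 kb had 14.23 and 12.90 in control and 9.83 and 7.07 after IL-4, with a log2 change of −0.46 ± 0.43 (SE; limma adjusted p = 0.8382).

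The upstream region at −326.1 kb had heights of 14.05 and 8.84 in control and 23.22 and 21.83 after IL-4. Both IL-4 values lay above both control values. The log2 change was 1.20 ± 0.34 (SE), with the lowest p of the 35 regions (limma unadjusted p = 0.000826, adjusted p = 0.2355). The estimate was between 0.97 and 1.46 with 1 library left out. At −321.5 kb, the adjacent region had 14.43 and 13.28 in control and 10.22 and 8.29 after IL-4, which also did not overlap but in the opposite direction (log2 change −0.36 ± 0.41, adjusted p = 0.8799).

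The region at −150.2 kb had 6.03 and 4.95 in control and 10.74 and 9.62 after IL-4, again without overlap. Its log2 change was 1.14 ± 0.51 (SE; limma unadjusted p = 0.0287, adjusted p = 0.5528). The region next to it at −141.0 kb was among the highest of the locus and went the other way, with 36.12 and 35.26 in control and 28.56 and 20.54 after IL-4 (log2 change −0.43 ± 0.22, adjusted p = 0.6212).

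The 2 Pik3r1 regions with the palindrome were thus those with the largest estimates among the 35. The other 33 had 11 estimates above 0 and 22 below, with a median of −0.36. Over all shared regions, 64.0% of the 2269 with the palindrome and 48.5% of the 23173 without it had an estimate above 0, with medians of 0.18 and −0.02. Among all regions of like length, 10.6% held the palindrome for the region at −326.1 kb and 9.45% for that at −150.2 kb. A match to these letters is a description and does not show that STAT6 was bound.

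**Figure D3:**
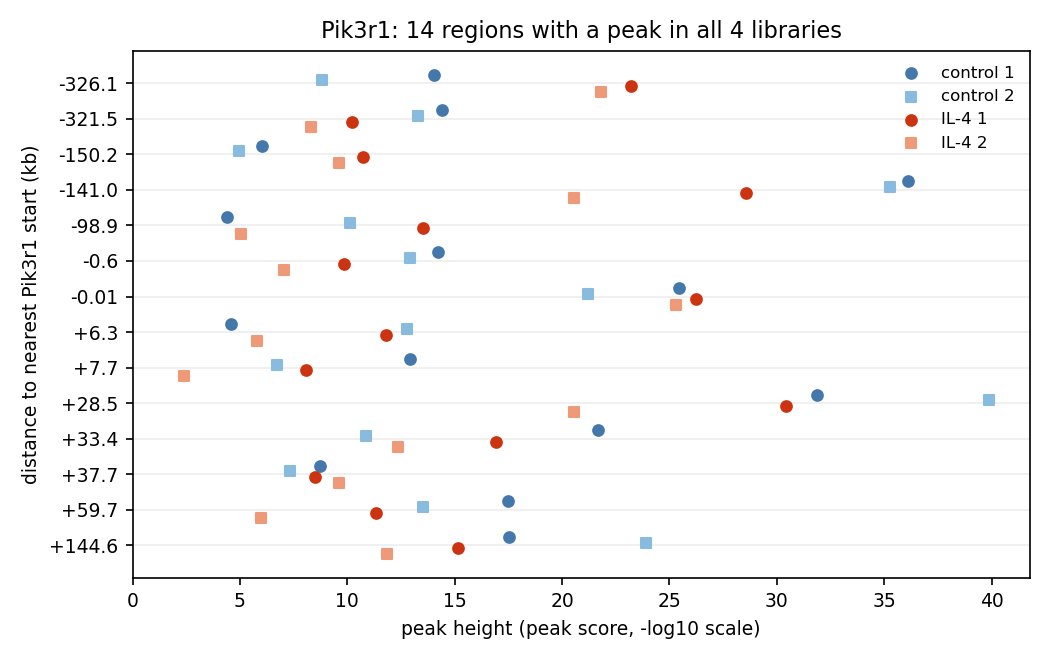
Peak height in each library for the 14 Pik3r1 regions shared by all 4 libraries, ordered by distance to the nearest Pik3r1 TSS in kb. Both IL-4 libraries (red) lie above both control libraries (blue) at −326.1 and −150.2 kb and below them at the neighbouring −321.5 and −141.0 kb.

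The remaining shared Pik3r1 regions were mixed. The highest, at 28.5 kb, had 31.86 and 39.90 in control and 30.42 and 20.57 after IL-4 (log2 change −0.38 ± 0.22, adjusted p = 0.6806), and the estimate was −0.63 without control 1, −0.15 without control 2 and −0.23 without IL-4 2. The lowest estimate was in intron 1 at 7.7 kb, −0.89 ± 0.55, where the groups overlapped (12.92 and 6.74 in control, 8.07 and 2.39 after IL-4). It was −0.52 without control 1, −1.66 without IL-4 1 and −0.12 without IL-4 2. Of the 14 estimates 7 were above 0 and 7 below, with a mean of 0.03 ± 0.65 (SD over regions), which was below 0 under some of the alternatives. Pik3r1 also had 2 control-only regions, with 7.12 and 5.62 at 37.6 kb and 4.97 and 7.41 at 127.3 kb, and a peak in 27, 25, 24 and 26 of its regions in control 1, control 2, IL-4 1 and IL-4 2.

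Pik3r5 encodes p101, the regulatory subunit that couples p110γ to G protein βγ subunits, and lies at chr11:68432125-68497849 on the plus strand. All 3 of its shared regions had estimates below 0, with a mean log2 change of −0.61 ± 0.26 (SD over regions). The highest, in intron 1 at 26.1 kb, had 29.12 and 20.10 in control and 12.54 and 10.44 after IL-4. The groups did not overlap, with a log2 change of −0.88 ± 0.32 (SE; limma unadjusted p = 0.00843, adjusted p = 0.4094).

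The promoter of Pik3r5 had 12.50 and 7.81 in control and 8.63 and 5.0 after IL-4, which overlapped. The log2 change of −0.36 was −0.13 without control 1, −0.61 without control 2, −0.60 without IL-4 1 and −0.12 without IL-4 2. The region at −14.1 kb had 9.75 and 8.78 in control and 5.34 and 5.05 after IL-4, without overlap (log2 change −0.59 ± 0.52, adjusted p = 0.8199). In addition, intron 1 held a control-only region at 8.1 kb with 4.80 and 2.37. Peaks were found in 8 and 6 of the 8 Pik3r5 regions in control and in 5 and 3 after IL-4, and none was gained.

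Pik3ap1 encodes BCAP, an adaptor that links B cell and Toll-like receptors to PI3K, and lies at chr19:41272541-41385102 on the minus strand. It had the most control-only regions of the 8 genes. These had heights of 4.38 and 3.78 at −70.1 kb, 6.52 and 6.32 in intron 1 at 2.1 kb, 5.58 and 6.32 in intron 2 at 13.6 kb and 6.10 and 9.85 in intron 2 at 39.9 kb. The last was the highest of the 12 control-only regions. Its promoter had a peak of 6.77 in control 1 and of 3.40 in IL-4 1 and none in the other libraries.

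The 3 shared regions of Pik3ap1 all had estimates below 0, with a mean of −0.59 ± 0.06 (SD over regions). The highest, in intron 2 at 45.7 kb, had 23.91 and 21.72 in control and 16.15 and 10.03 after IL-4 (log2 change −0.64 ± 0.32, limma adjusted p = 0.6025), and the groups did not overlap. At −17.7 kb the heights overlapped, with 17.07 and 10.57 in control and 12.19 and 4.73 after IL-4. With IL-4 1 left out, 4 Pik3ap1 regions were shared by the kept libraries. Their mean was −0.28, with 3 estimates below 0 and 1 above, and the estimate at 45.7 kb was −0.80.

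Inpp5d encodes SHIP1, the hematopoietic phosphatase that removes the 5-phosphate of PIP3 and so opposes PI3K, and lies at chr1:87620312-87720510 on the plus strand. Its highest region was in intron 1 at 6.3 kb, with 23.01 and 18.90 in control and 27.31 and 21.94 after IL-4. These heights overlapped, but after normalisation both IL-4 values were above both control values. The log2 change was 0.40 ± 0.27 (SE; limma adjusted p = 0.7322). In intron 2 at 17.4 kb the heights were 15.18 and 21.07 in control and 7.36 and 6.96 after IL-4. Both control values were above both IL-4 values, and the log2 change was −1.08 ± 0.42 (SE; limma unadjusted p = 0.0119, adjusted p = 0.4338).

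The same intron 2 of Inpp5d held a shared region at 20.2 kb with 11.23 and 6.33 in control and 3.64 and 3.85 after IL-4 (log2 change −0.94 ± 0.54, adjusted p = 0.6711). Between them, at 19.6 kb, was the control-only region with a palindrome, with 4.55 and 5.38. A second control-only region lay at −12.7 kb with 2.39 and 3.41. The promoter had peaks of 9.30 in control 1 and 6.93 in IL-4 1 only.

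The highest peaks of Akt1, the ubiquitous AKT isoform, and Rictor, the scaffold that defines mTORC2, were 5.05 and 4.95, the lowest of the 8 genes. Akt1 lies at chr12:112653821-112674884 on the minus strand. Its highest promoter region, at −0.2 kb, was called in IL-4 1 only, with a height of 3.91, and only 6.22% of genes had a promoter region with a lower mean height. A second promoter region at −0.6 kb was called in control 1 only, with 2.49. A region at −1.2 kb had 3.28 and 4.90 in control and 2.23 in IL-4 1. In the RefSeq models these lay at 25 bp and −521 bp from an Akt1 start, respectively. The single shared region of Akt1, in intron 2 at 6.1 kb, had 2.88 and 2.72 in control and 4.88 and 5.05 after IL-4. The groups did not overlap, with a log2 change of 0.99 ± 0.54 (SE; limma adjusted p = 0.6470), and no other gene than Pik3r1 had an estimate as high.

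Rictor lies at chr15:6708349-6800401 on the plus strand and had no region in all 4 libraries when peaks had to overlap. Its promoter had 4.18 and 3.63 in control and 1.51 in IL-4 1, and only 2.62% of genes had a promoter region with a lower mean height. A region at −2.6 kb had 4.01 and 3.44 in control and 3.21 in IL-4 1. Its highest region, inside Fyb at −59.2 kb, had 4.95 in control 2 only. IL-4 2, the library with the fewest peaks, had no peak at −0.3 or −2.6 kb but had one of 2.29 at −0.1 kb, next to the promoter region. With peaks within 500 bp merged, these promoter regions formed 1 region shared by the 4 libraries, and its log2 change was −0.78 ± 0.54 (SE; limma adjusted p = 0.7456).

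**Figure D4:**
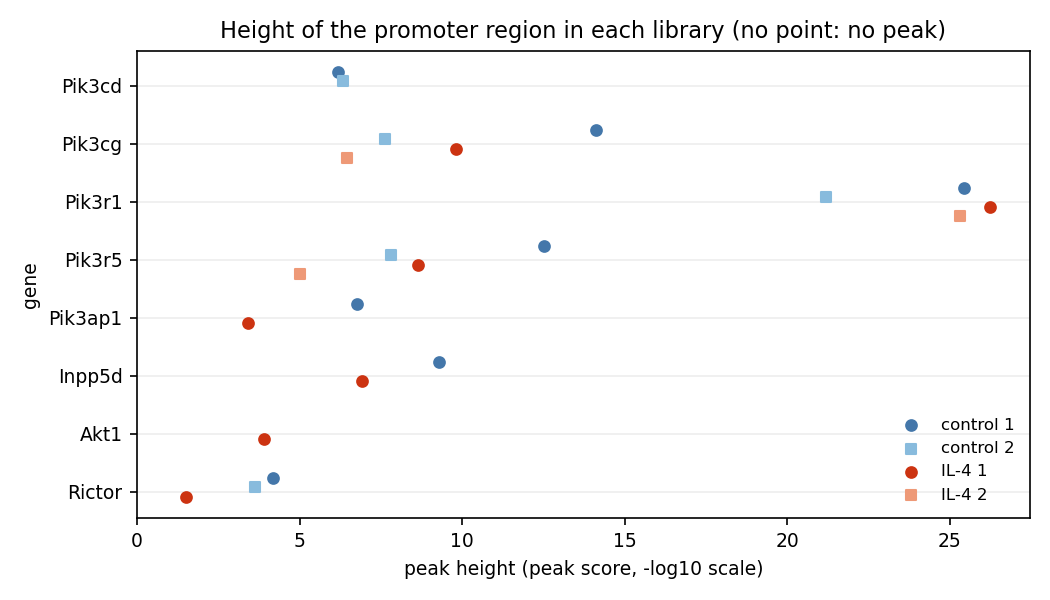
Peak height of the highest promoter region of each gene in each library, where a missing point means that no peak was called. Pik3cg, Pik3r1 and Pik3r5 have 4 points, Pik3cd has its 2 control points, and Akt1 has 1. Other Pik3cd regions near a start, among them the IL-4-only region at 880 bp, are not shown.

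By the deposited start sites, a promoter region whose peaks were called in all 4 libraries was the highest one for 3 of the 8 genes, Pik3cg, Pik3r1 and Pik3r5, compared with 75.6% of the 10779 genes with a promoter region. The median of their mean heights was 10.66 over all those genes, and of the 8 only Pik3r1 exceeded it. The highest region by mean height over the libraries with a peak was outside the promoter in 7 of the 8 genes. The same share over all genes was not computed. The exception, Akt1, had 3.91 in IL-4 1 only, beside a mean of 3.883 over all 4 libraries at 6.1 kb.

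**Figure D5:**
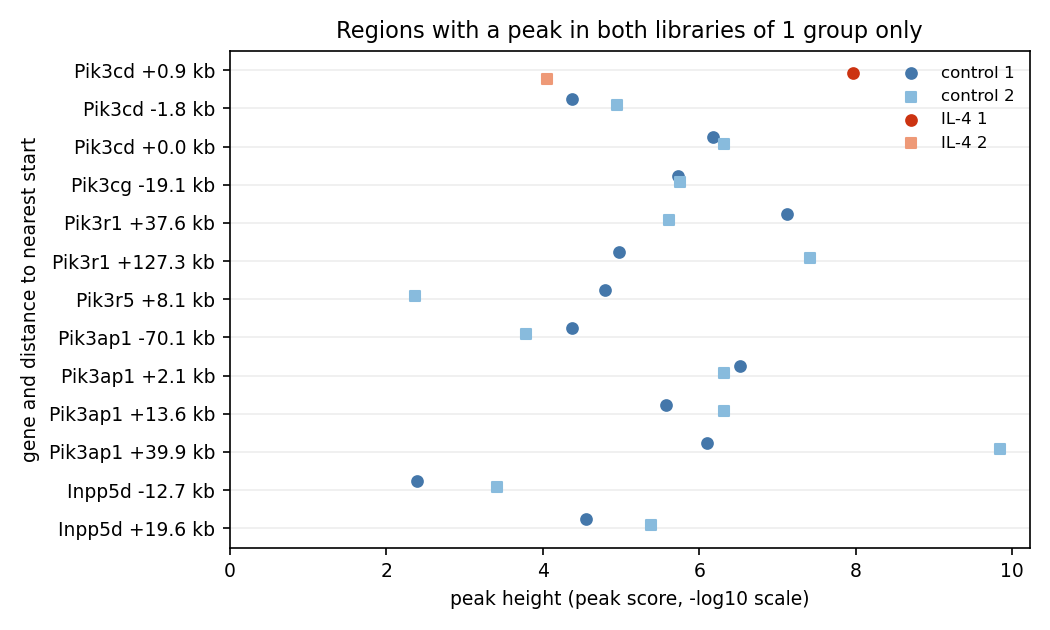
Heights of the 13 member regions called in each library of 1 group and never in the other. The 12 control-only regions have heights from 2.37 to 9.85, and the 1 IL-4-only region, in Pik3cd, has 7.97 and 4.06.

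The shared member regions were also searched for the motifs of macrophage factors on both strands. GAGGAAGT, bound by PU.1, was present in 10 of the 35 (28.6%), compared with 12.2% of all shared regions. TGTGGTT, bound by RUNX factors, was present in 8 (22.9%), compared with 10.4%. TGACTCA, bound by AP-1, was present in 8 (22.9%), close to the 22.5% of all shared regions. TTGCNNAA, bound by C/EBP factors, was less frequent, in 2 (5.71%) compared with 15.7%. The estimate was below 0 in 8 of the 10 regions with the PU.1 motif (80.0%), compared with 51.1% of all shared regions with it, and in 4 of the 8 with the RUNX motif. Of the 8 regions with TGACTCA 7 had an estimate below 0, with a median of −0.59, and they included the Pik3r5 region at 26.1 kb and the Inpp5d regions at 17.4 and 20.2 kb. Over all shared regions with TGACTCA, 57.0% had an estimate below 0, with a median of −0.08. The 2 Inpp5d regions lie in the same intron and are not independent.

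Of 51 other genes of the pathway, among them other PI3K subunits, Akt2, Mtor, Rptor, Tsc2, Foxo1 and Irs2, 49 had a region, with 298 regions in all. Among the 118 of them shared by all 4 libraries no region passed the adjusted threshold in limma, and the lowest adjusted p was 0.3667. At an unadjusted p under 0.05, 7 were higher and 3 lower. The estimates were below 0 in 48.3%, with a median of 0.01, compared with 62.9% and −0.36 at the 8 genes. Control-only regions made up 5.70% and IL-4-only regions 2.68%. One of the IL-4-only regions held TTCNNNNGAA, in intron 1 of Gab2, an adaptor that binds p85, at chr7:97108201-97108427, with heights of 6.05 and 7.20 after IL-4 and no peak in control.

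Among the 33 of these genes with a promoter region in all 4 libraries, those of Pik3r6, Foxo3 and Gab1 were nearest to the median profile of the Pik3cg, Pik3r1 and Pik3r5 promoters. The distances over the 4 normalised log2 heights were 0.780, 0.795 and 0.865. The promoter of Pik3r6, which encodes the other p110γ regulatory subunit, had 10.62 and 7.54 in control and 6.88 and 5.0 after IL-4.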

How the data were processed

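ATAC-seq reads were aligned to mm10 with BWA 0.7.10, peaks were called in each library on its own with MACS2 2.0.10, blacklisted regions were removed and peaks were annotated with HOMER 4.2, per the methods and processing notes of the authors, which also name SAMtools 0.1.19. Tn5 shifting and duplicate handling are not given in the sources used here. The deposited peak score was read as −log10 of the q-value, since its lowest value was 1.3. No label states this unit, and 133 to 603 peaks per library scored under 2, although the methods name q of 0.01.

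Peaks were merged into regions (Python 3.11.15, checked with bedtools 2.31.1). After log2 transformation and quantile normalisation, shared regions were compared with limma 3.58.1 (R 4.3.3, eBayes with a trend, Benjamini-Hochberg adjustment). The scripts were tested on simulated data. The genes, lists and motifs were chosen with earlier results of these data known. Named regions were, for each gene, the promoter region (within 1000 bp), the highest region and those with the largest rise and fall in estimate, plus the 5 with the lowest p, all group-specific regions and those with the palindrome. Sequences and gene models are from RefSeq GRCm38.p6, the assembly behind mm10.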

Additional observations from a re-analysis of the deposited data

How the results depend on the processing

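Calls by limma at the 8 genes stayed at 0 under each alternative run, the paired fit included, where the replicate block gave 0 member calls and a lowest member adjusted p of 0.1423, and it changed no member call. Over all shared regions the replicate block gave 11 calls higher and 3 lower, compared with 4 and 2 in the main fit. Deviations of libraries with the same replicate number were hardly correlated (0.0068 over 25442 regions). This does not show whether such libraries shared an animal or a day, which the labels do not state. The median log2 height change of −0.36 was −0.32 with median centring and −0.56 without normalization, where the median of all shared regions was −0.21. It ranged from −0.44 to −0.16 with 1 library left out, where the lone library of a group is assumed to vary like the others. In those fits 37 to 45 member regions were shared by the kept libraries. The difference in peak number of −15.5 was negative under each alternative run and ranged from −21.5 to −9.5 with 1 library left out.

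The IL-4-only count of 1 became 0 without peaks scoring under 5, and it ranged from 3 to 10 with 1 library left out. The control-only count of 12 ranged from 15 to 24 in the same way. Shares over all regions were not computed for these alternatives. Estimates near 0 changed sign at 3 regions: Pik3cd −9.1 kb was −0.21 without normalization and ranged from −0.33 to 0.35 with 1 library left out; Pik3cg 44.5 kb was −0.019 without normalization; the Pik3cg promoter ranged from −0.48 to 0.19 with 1 library left out. Of 83 gene means under alternatives, 15 moved by more than the spread between libraries and 7 changed sign. The set of shared regions also changed under some alternatives. The Pik3r1 mean of 0.03 was −0.17 without normalization, −0.08 without peaks under 5, −0.07 within 100 kb, −0.02 with regions in 2 or more libraries, −0.02 without control 1 and −0.14 without IL-4 1, and the Pik3cg mean of −0.24 was 0.0034 without peaks under 5. The comparison had 2 libraries per group, unknown depth and heights in place of reads. Even the largest estimate, 1.20 ± 0.34 (SE) at Pik3r1 −326.1 kb, did not pass the threshold (limma adjusted p = 0.2355). The lack of a call at a member region therefore does not show that its height was unchanged.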
